A study of Mus musculus with 30 samples.

Results

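The 9 genes described here encode channel proteins that shape the action potential of heart muscle: Scn4b, Kcnd2, Kcnd3, Kcnip2, Kcnj2, Kcnj3, Kcnh2, Kcnq1 and Cacna1c. They were taken by name, with every probe set that the array's annotation assigns to one of these symbols alone, which gave 21 of the 34945 probe sets and 9 of the 18193 genes with a single symbol. Expression was measured on 30 Affymetrix Mouse Genome 430 2.0 arrays of total RNA from whole heart, kidney, brain and vessel of male C57BL/6 mice aged 8 to 10 weeks. Mice carried osmotic pumps delivering angiotensin II, the peptide hormone that constricts vessels and raises blood pressure, at 1500 ng per kg per min for 1, 3 or 7 days, and the day 0 groups received none. No genetic alteration is given for any group. The labels do not say whether day 0 mice carried a pump, or which organs came from the same mouse. The heart groups hold 3 arrays each (days 0, 1, 3 and 7) and the kidney groups 2 each (same days). Brain was measured on 2 arrays a day without a day 1 group, and vessel on a single array a day.

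Each heartbeat is a sequence of ionic currents. Sodium channels start the action potential, and Scn4b encodes a small beta subunit that sits beside their pore and changes its gating. The transient outward potassium current then begins repolarization, and in mouse ventricle it is carried by Kv4 channels: Kcnd2 and Kcnd3 encode the pore subunits Kv4.2 and Kv4.3, and Kcnip2 encodes KChIP2, a calcium-binding partner that brings them to the membrane. Cacna1c encodes the pore of the L-type calcium channel that triggers contraction. Kcnh2 and Kcnq1 encode the pores of the rapid and slow delayed rectifier currents, Kcnj2 the Kir2.1 inward rectifier that holds the resting potential, and Kcnj3 the Kir3.1 subunit of the acetylcholine-activated potassium channel, best known from atrium and pacemaker tissue. Loss of transient outward current and of KChIP2 is a well known feature of hypertrophied and failing hearts.

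Promoter windows were available for 8 of the 9 genes in the RefSeq table (build GRCm38.p6). The 250 bases before the annotated start are printed for the 3 genes with a change over time in heart (Scn4b, Kcnd2 and Kcnip2), and for Kcnd3, the Kv4 gene without one. Letters in capitals mark matches to a GC box (GGGCGG or CCGCCC) or to the short core bound by Krüppel-like factors (CACCC or GGGTG), each read on both strands.
Scn4b (chr9:45138374-45138623, plus strand): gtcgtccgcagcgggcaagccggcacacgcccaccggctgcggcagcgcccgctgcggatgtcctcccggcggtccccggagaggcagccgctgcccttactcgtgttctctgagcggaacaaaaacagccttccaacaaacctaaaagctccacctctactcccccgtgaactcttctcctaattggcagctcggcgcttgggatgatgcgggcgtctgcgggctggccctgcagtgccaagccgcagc
Kcnd2 (chr6:21215096-21215345, plus strand): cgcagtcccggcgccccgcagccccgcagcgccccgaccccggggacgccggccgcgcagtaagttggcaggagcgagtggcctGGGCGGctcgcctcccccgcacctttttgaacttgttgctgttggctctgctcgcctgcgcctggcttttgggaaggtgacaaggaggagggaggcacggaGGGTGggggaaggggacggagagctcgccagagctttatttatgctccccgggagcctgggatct
Kcnip2 (chr19:45816064-45816313, minus strand): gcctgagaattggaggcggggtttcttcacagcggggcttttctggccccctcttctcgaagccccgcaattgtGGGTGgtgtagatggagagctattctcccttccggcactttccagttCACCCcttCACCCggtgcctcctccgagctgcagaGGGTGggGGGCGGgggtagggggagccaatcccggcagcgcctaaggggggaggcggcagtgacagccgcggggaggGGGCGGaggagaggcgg
Kcnd3 (chr3:105451640-105451889, plus strand): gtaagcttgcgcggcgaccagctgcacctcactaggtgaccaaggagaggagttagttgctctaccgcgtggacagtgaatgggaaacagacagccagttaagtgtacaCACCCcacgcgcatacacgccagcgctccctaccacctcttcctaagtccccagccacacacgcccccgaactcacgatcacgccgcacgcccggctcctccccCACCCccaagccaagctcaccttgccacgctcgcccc
The Kcnip2 window held 4 CACCC cores, at -176, -129, -121 and -94 from the start, and 2 GC boxes. The Kcnd2 window held 1 of each, the Kcnd3 window 2 cores and no GC box, and the Scn4b window neither. Such matches are common: of 32851 windows of this length, 52.0% held at least 1 CACCC core and 32.7% at least 1 GC box. The share of windows with several matches was not counted, so the Kcnip2 numbers have no background here. The start used for Kcnip2 lies 359 bases inside the annotated gene. None of these 4 windows held the TATA box TATAAA (12.4% of windows), the E box CACGTG (6.0%), the GATA site AGATAA (10%), the AP-1 site TGANTCA (6.7%) or the T-box motif AGGTGT (11.8%), read on both strands. The GC content was 66.0% for Scn4b, 68.8% for Kcnd2, 66.8% for Kcnip2 and 62.8% for Kcnd3, against a median of 52.4% over all windows. The windows of the genes with a change and of Kcnd3 thus shared a high GC content but no motif present in all.

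Signals are intensities on the deposited linear scale, and changes are differences of group means of log2(intensity + 16), which understates the changes of weak signals. Where a gene has several probe sets, the one with the highest mean over all arrays is called its reference. A probe set was tested in a tissue when it exceeded the array's 40th percentile, which lay between 22.8 and 26.5, on at least as many arrays as a group holds. In heart 16 of the 21 probe sets passed, for 8 of the 9 genes. The only probe set of Kcnj2 stayed between 5.35 and 9.88 on all 30 arrays and was never tested, so nothing is said of Kir2.1 mRNA. A further 4 weak probe sets, 1 each of Kcnj3, Kcnd2, Kcnd3 and Kcnip2, also never rose above that percentile. The array medians lay between 35.2 and 37.8.

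The summed intensity of 16 cardiomyocyte markers was 190289 to 196552 at day 0, 176982 to 200105 at day 1, 181647 to 198097 at day 3 and 196269 to 198478 at day 7. Endothelial markers (12) summed to 16540 to 17833 at day 0, 15753 to 16650 at day 1, 16014 to 17568 at day 3 and 18356 to 18538 at day 7. Some other cell types' sums differed more between days. The 11 neutrophil markers summed to 462, 464 and 1566 at day 0. In replicates 1, 2 and 3 of day 1 they summed to 5576, 8056 and 1735 (5 rose and 0 fell). Macrophage markers (14) summed to 10130 to 13223 at day 0 and 13007 to 19787 at day 1 (4 rose and 0 fell). The sum of 12 fibroblast markers was 22697 to 31131 at day 0, 21606 to 22326 at day 1, 29776 to 47079 at day 3 and 32372 to 36774 at day 7; 2 of the 12 fell at day 1 and 1 rose at day 3, when their median change was 0.81. The sum of 11 smooth muscle markers was 9670 to 10236 at day 0 and 11849 to 12397 at day 1 (3 rose and 1 fell). That of 12 skeletal muscle markers was 2041 to 3225 at day 0 and 6589 to 7682 at day 7. The skeletal muscle list includes Acta1, also listed here as a cardiac stress gene, which rose by 1.67 at day 7. Of the 6 markers of that list tested in heart, 1 rose at day 7, and their median change was 0.06. The part of these cell types in the channel values was not tested. In whole tissue, fewer cells of a type and less RNA per cell cannot be told apart. Replicates are called biological in the labels without naming the mice, so p-values measure only the spread between these samples.

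At day 1 of angiotensin II, 5 of the 8 channel genes tested in heart had fallen and 0 had risen: Scn4b, Kcnd2, Kcnip2, Kcnj3 and Cacna1c. The falls ran from 1.35-fold for Cacna1c to 2.77-fold for Scn4b, while Kcnh2, Kcnq1 and Kcnd3 did not pass the test. Over probe sets, 8 of the 16 tested fell. Among all 24427 probe sets tested in heart, 6.98% fell and 4.48% rose at day 1 (limma, Benjamini-Hochberg adjusted p under 0.05). In 4 of the 8 genes every day 1 array lay below every day 0 array, as did 16.7% of all probe sets. The median change of the 8 genes, by their reference probe sets, was -0.78, against -0.02 over all probe sets. The genes were chosen with earlier results of these data known. These contrasts with all probe sets are thus a description and not a test of the set.

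**Figure D1:**
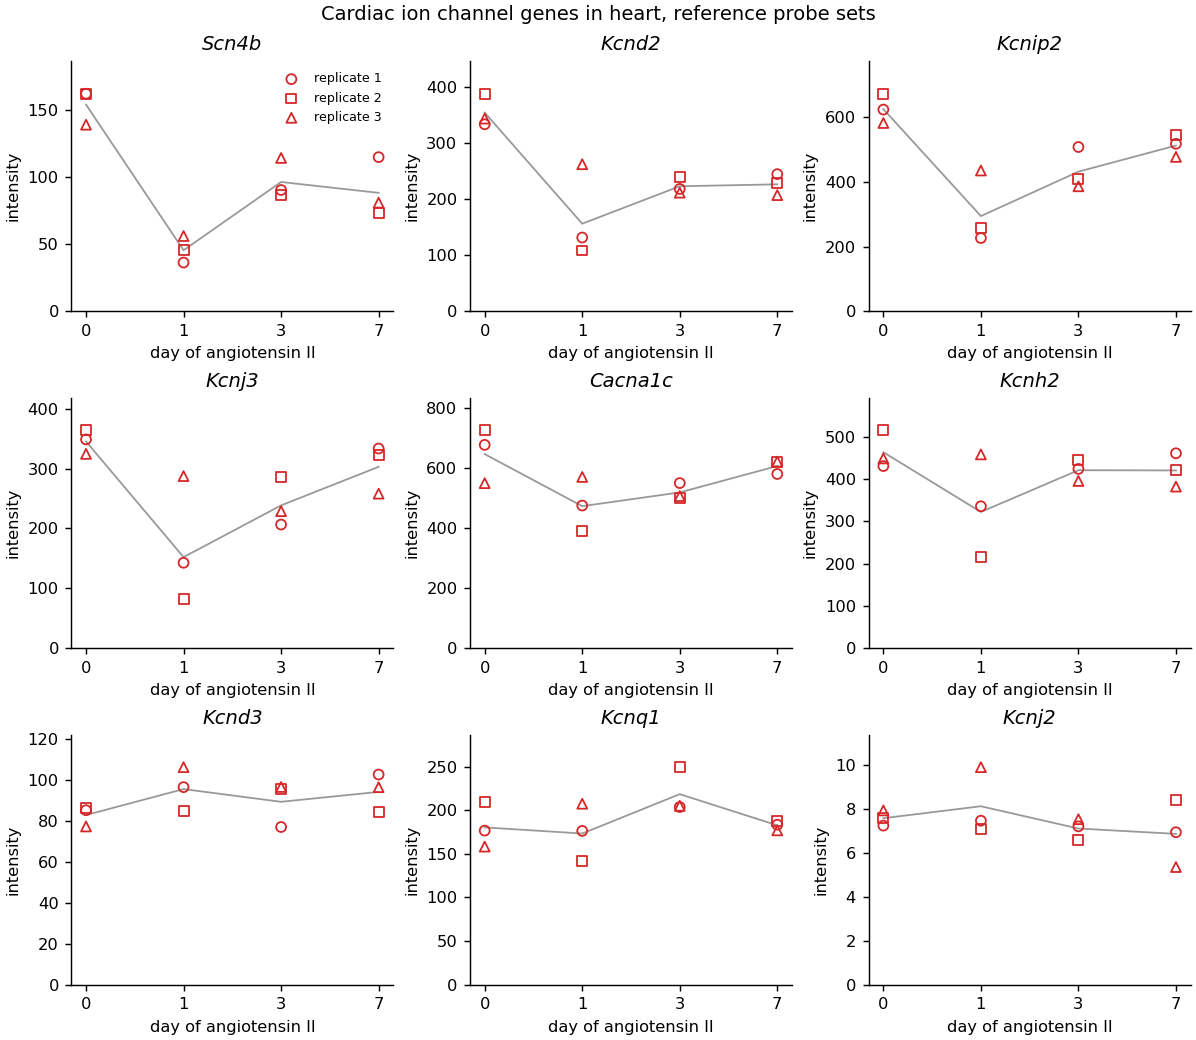
Intensity of the reference probe set of each of the 9 genes on the 12 heart arrays (linear axes from 0), by day of angiotensin II; symbols mark replicate numbers and the line joins group means taken on the log2(intensity + 16) scale. Scn4b, Kcnd2, Kcnip2 and Kcnj3 lie below all day 0 arrays at days 1 and 3; Kcnj2 stays under 10 throughout (highest value 9.88).

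Scn4b (chr9:45138624-45154155), the sodium channel beta 4 subunit, showed the deepest fall. Its intensity was 162, 162 and 139 at day 0, 36.3, 45.6 and 56.1 at day 1, 90.3, 86.3 and 114 at day 3, and 115, 73.3 and 80.9 at day 7. The 3 day 1 arrays were the lowest of the 12, and no treated array reached the day 0 range. The change at day 1 was -1.47 ± 0.16 (SE, n = 3 and 3), with an adjusted p of 0.00048. Scn4b passed at day 1 with each of the 12 heart arrays left out in turn (adjusted p 2.4e-05 to 0.0053). The change stood at -0.60 ± 0.16 at day 3 and -0.71 ± 0.16 at day 7, which did not pass over all probe sets (adjusted p 0.18 and 0.21). It rose between day 1 and day 3 by 0.87 ± 0.16 (adjusted p 0.016) and between day 1 and day 7 by 0.76 ± 0.16 (adjusted p 0.020). The rise to day 3 no longer passed without day 1 replicate 1 (0.084), day 1 replicate 2 (0.053) or day 3 replicate 2 (0.063), and that to day 7 without day 1 replicate 1 or 2 or any single day 7 array (0.051 to 0.11).

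Of the transient outward current genes, Kcnd2 and Kcnip2 fell at day 1 and Kcnd3 did not pass. Kcnd2 (chr6:21215346-21729805), which encodes Kv4.2, read 334, 389 and 344 at day 0 and 132, 109 and 263 at day 1. It read 219, 241 and 212 at day 3 and 245, 229 and 208 at day 7. All 9 treated arrays lay below the 3 untreated ones, and replicate 3 of day 1 lay far above the other 2 of its group. The day 1 change was -1.11 ± 0.22 (adjusted p 0.0082), a 2.15-fold fall. The other 2 tested Kcnd2 probe sets fell as far, by -1.17 ± 0.22 and -1.02 ± 0.18 (adjusted p 0.0076 and 0.0055). At days 3 and 7 the 3 probe sets stood between -0.65 and -0.55 and did not pass. Without day 1 replicate 1 the reference probe set of Kcnd2 reached -0.99 with an adjusted p of 0.050, while the other 2 still passed.

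Kcnip2 (chr19:45792346-45816422), the KChIP2 gene, read 623, 672 and 581 at day 0 and 226, 257 and 435 at day 1. Its day 3 arrays read 507, 409 and 386 and its day 7 arrays 517, 543 and 477. The groups did not overlap: treated hearts stayed below untreated hearts on every day, with the gap narrowest at day 7. The day 1 fall was -1.05 ± 0.19 (adjusted p 0.0052), or 2.07-fold, and it passed with each heart array left out in turn. By day 7 it was -0.28 ± 0.19 (adjusted p 0.71), a rise of 0.77 ± 0.19 since day 1 (adjusted p 0.037). That rise lost its call without any one of 9 of the 12 arrays (adjusted p up to 0.17), day 1 replicates 1 and 2 among them. A second Kcnip2 probe set, near the percentile limit at 18.7 to 34.5, gave -0.15 ± 0.12 at day 1 and did not show the fall. The mean of all Kcnip2 probe sets on the log2 scale fell by 0.46.

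Kcnd3 (chr3:105451890-105674002), which encodes Kv4.3, did not pass at any time. It read 85.2, 86.3 and 77.3 at day 0, 96.5, 84.9 and 106 at day 1, 77.0, 95.6 and 96.6 at day 3, and 103, 84.2 and 96.4 at day 7. The groups overlapped at every time. The day 1 change was 0.17 ± 0.11, with a 95% interval of -0.06 to 0.41. Its 2 weaker probe sets gave -0.11 ± 0.13 and -0.03 ± 0.13 at day 1. The interval of Kcnd3 at day 1 thus lay above that of Kcnd2, which ran from -1.57 to -0.64; the difference between the genes itself was not tested.

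Kcnj3 (chr2:55411798-55598145), the Kir3.1 subunit, read 349, 364 and 325 at day 0 and 143, 82.4 and 287 at day 1. It read 206, 287 and 229 at day 3 and 334, 323 and 258 at day 7. Every day 1 and day 3 array lay below day 0, and at day 7 the ranges overlapped. The day 1 change was -1.11 ± 0.29 (adjusted p 0.026). A second probe set fell by -0.33 ± 0.09 (adjusted p 0.038; not passed in 7 of 12 fits with an array left out), and another gave -0.82 ± 0.26 and just missed the threshold (adjusted p 0.058). The call of the reference probe set was lost without any one day 0 array, without day 1 replicate 1 or without day 1 replicate 2 (adjusted p 0.054 to 0.10), and was strongest without day 1 replicate 3 (-1.53, adjusted p 8.2e-05). Kcnj3 is rich in atrium, and the sum of 13 atrial markers was 28355, 30085 and 21562 at day 0 and 31272, 24489 and 31044 at day 1. That list includes Nppa, also listed here as a cardiac stress gene. The median change of the 13 markers at day 1 was -0.14 (1 fell and 0 rose). At day 3 replicate 1 the atrial sum was 13181, the lowest of all heart arrays, beside a Kcnj3 intensity of 206. The part of atrial content in the Kcnj3 values of any day was not tested.

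Cacna1c (chr6:118587240-119197384), the L-type calcium channel pore, showed the smallest change that passed. Its intensity was 677, 725 and 549 at day 0, 475, 390 and 570 at day 1, 549, 501 and 506 at day 3, and 580, 619 and 621 at day 7. The day 1 and day 0 ranges overlapped, since replicate 3 of day 1 read above replicate 3 of day 0. The change was -0.44 ± 0.13 (adjusted p 0.049), and the second Cacna1c probe set gave -0.47 ± 0.16 (adjusted p 0.076). This call lies at the threshold: it was lost in 9 of 12 fits with an array left out, including those without day 0 replicate 1 or 2 and those without day 1 replicate 1 or 2 (adjusted p up to 0.21).

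The delayed rectifier genes did not pass. Kcnh2 (chr5:24319589-24351684), the ERG channel of the rapid component, read 431, 515 and 449 at day 0 and 336, 216 and 458 at day 1. Replicates 1 and 2 of day 1 were the lowest of the 12 arrays, and replicate 3 lay inside the day 0 range. The change was -0.50 ± 0.19 (adjusted p 0.11), and only without replicate 3 of day 1 did it pass (-0.75, adjusted p 0.0037). Its values at days 3 and 7 ran from 382 to 461. Kcnq1 (chr7:143106877-143427050), the pore of the slow component, read 177, 209 and 158 at day 0, 176, 142 and 207 at day 1, 204, 249 and 205 at day 3, and 183, 188 and 177 at day 7. Its groups overlapped throughout, and the day 1 change was -0.05 ± 0.13, with a 95% interval of -0.34 to 0.24.

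Replicate 3 of day 1 was thus the mildest array for Scn4b, Kcnd2, Kcnip2, Kcnj3, Cacna1c and Kcnh2. The same array had the lowest neutrophil sum of its group and a macrophage sum of 13007, beside 15716 and 19787 in replicates 1 and 2. It also had the lowest sum of 11 cardiac stress genes in that group, 54185 beside 73887 and 80137, although all 3 lay above the day 0 range of 23182 to 27069. The part of these signals in the channel changes was not tested. Without replicate 3, 6 of the 8 genes were called at day 1; without replicate 1, only 2, Scn4b and Kcnip2; and 3 without replicate 2 or without day 0 replicate 1 or 2.

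**Figure D2:**
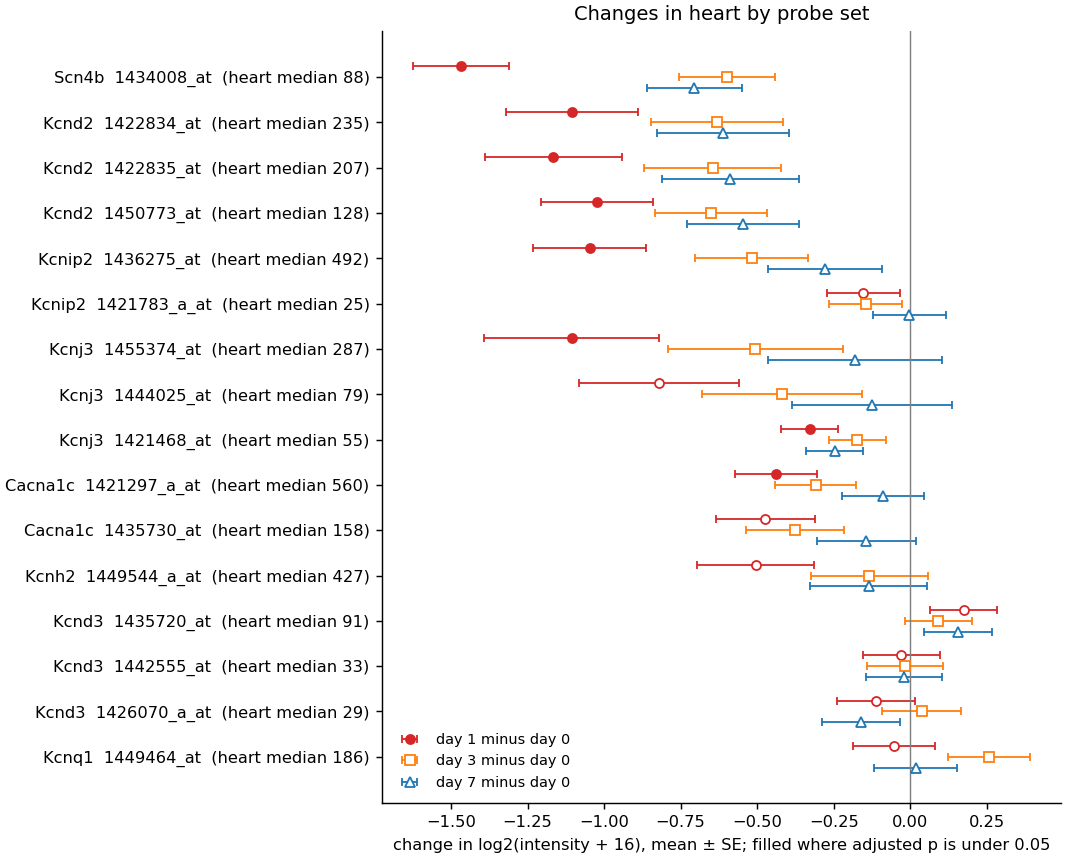
Change in heart at days 1, 3 and 7 against day 0 for each of the 16 tested probe sets (mean ± SE on the log2(intensity + 16) scale; 3 arrays a group); filled symbols passed an adjusted p of 0.05, and labels give the median intensity over the 12 heart arrays. The 3 Kcnd2 probe sets lie together, while the weak second Kcnip2 probe set, with a median of 25.4, lies near 0.

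At days 3 and 7 none of the 8 genes passed against day 0 in limma, although 4 and 2 had an unadjusted p under 0.05. Over all probe sets 0.0532% passed at day 3 (0.00819% lower, 0.0450% higher) and 0.0368% at day 7 (0.00409% lower, 0.0328% higher). The direction of day 1 was kept in part: at day 3 every array lay below day 0 for 4 genes (Scn4b, Kcnd2, Kcnip2 and Kcnj3; 9.84% of all probe sets), and at day 7 for 3 (Scn4b, Kcnd2 and Kcnip2; 11%). The median change of the 8 genes was -0.41 at day 3 and -0.16 at day 7. With only the groups compared in the fit, Kcnd2 passed at day 3, and Kcnd2 and Scn4b at day 7. Without day 1 replicate 3, where the SE of Kcnd2 was 0.10 in place of 0.22, Kcnd2 and Kcnip2 passed at day 3 and Kcnd2 at day 7. Between day 1 and day 3, 1 gene rose (Scn4b; 2.10% of all probe sets rose, 1.31% fell and 3.41% changed). Between day 1 and day 7, 2 rose (Scn4b and Kcnip2; 2.27% rose, 1.92% fell and 4.18% changed). Without day 1 replicate 3 these counts were 5 and 6. Without day 1 replicate 1 or 2 both were 0, as was the first without day 3 replicate 2 and the second without any single day 7 array; the second was 1 without any single day 0 array or day 3 replicate 2. Between days 3 and 7 none passed, 0 had an unadjusted p under 0.05, and 0% of all probe sets passed. The F test over all times called 3 genes, Scn4b, Kcnip2 and Kcnd2 (adjusted p 0.0029, 0.023 and 0.039; 5.72% of all probe sets), and with single arrays left out this count ran from 1 to 6. It was 1 without day 0 replicate 1 or 2 or day 1 replicate 1 or 2, and 6 without day 1 replicate 3.

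Genes whose pattern over the 12 heart arrays was most like these 3 were ranked by Pearson correlation among 14046 genes, as a description; arrays of a group share their day, so the figures hold the time course as well as the arrays' own differences. For Kcnd2 they were Mccc2 (r = 0.989), Mtres1 (0.984) and Stard3 (0.978). For Kcnip2 they were Cyfip2 (0.987), Rdh14 (0.982) and Ddt (0.973), and for Scn4b Tmem150a (0.979), Ptcd3 (0.977) and Msl3 (0.971).

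Of 82 listed genes for other sodium, calcium, potassium, pacemaker and chloride channels and their partners, 72 matched a single symbol and 54 were tested in heart. At day 1, 3 fell and 2 rose, with a median change of -0.04, against 6.98% lower and 4.48% higher among all probe sets; these shares are near the background. At days 3 and 7 none passed. The falls were in Abcc9 and Abcc8, the sulfonylurea receptor subunits of ATP-sensitive potassium channels, and Kcnn1, a small-conductance calcium-activated potassium channel. Abcc9 read 1596, 1825 and 1565 at day 0 and 1028, 870 and 1444 at day 1 (-0.60 ± 0.16, adjusted p 0.028). Abcc8 changed by -0.55 ± 0.15 (adjusted p 0.029) and Kcnn1 by -0.37 ± 0.11 (adjusted p 0.043). In Abcc9 and Abcc8, too, replicate 3 of day 1 was the highest of its group. The rises were in the Popeye domain genes Popdc2 (0.51 ± 0.10, adjusted p 0.0092) and Popdc3 (0.64 ± 0.19, adjusted p 0.047), membrane proteins that bind cyclic AMP. Kcne1, the beta subunit that joins Kcnq1 in the slow delayed rectifier, gave -0.56 ± 0.24 at day 1 and 0.75 ± 0.24 at day 7, and neither passed (adjusted p 0.14 and 0.41). Kcnj5, which encodes the Kir3.4 partner of Kcnj3, gave 0.20 ± 0.28 at day 1, and the Kv1.5 gene Kcna5 gave 0.10 ± 0.21.

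Among 17 tested genes of gap junctions and the intercalated disc, 2 rose and 2 fell at day 1 (4.48% of all probe sets rose and 6.98% fell). Cav3, the caveolin of muscle membranes, rose by 0.89 ± 0.13 (adjusted p 0.0020), and Pkp2, named to complete the count, rose by 0.62 ± 0.12. Ank2, the ankyrin that anchors ion transporters, fell by 0.69 ± 0.16 (a change of -0.69, adjusted p 0.018), and Gpd1l, a regulator of the sodium channel, changed by -0.67 ± 0.16 (adjusted p 0.018). The connexin 43 gene Gja1 gave 0.34 ± 0.14 and did not pass. Of 17 calcium handling genes 2 fell, against the same 6.98%, Hrc (-0.59 ± 0.13) and S100a1 (-0.28 ± 0.08), and the ryanodine receptor gene Ryr2 gave -0.21 ± 0.11. None of the 4 tested sodium pump genes passed at any time; the smallest p at day 1 was that of Fxyd1 (-0.25 ± 0.08, adjusted p 0.075). At days 3 and 7 no gene of these lists passed.

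Transcription factors known to act on heart channel genes were also followed. Of 23 tested, 4 fell at day 1 and none rose, where 6.98% of all probe sets fell and 4.48% rose: Esrrg (-0.69 ± 0.20), Tbx3 (-0.51 ± 0.12), Esrra (-0.51 ± 0.13) and, named to complete the count, Foxo1 (-0.45, adjusted p 0.030). Klf15, the Krüppel-like factor that drives the daily rhythm of Kcnip2 in mouse heart, read 351, 327 and 296 at day 0 and 199, 134 and 303 at day 1. Its change of -0.64 ± 0.25 did not pass (adjusted p 0.12), and replicate 3 of day 1 again read highest. Of 16 clock genes, Per3 alone passed at day 1 (-0.54 ± 0.16, adjusted p 0.047), a share near that 6.98%. The hour of tissue collection is not given in the sources used here, and its part in Kcnip2 was not tested. For scale, Myh7, the fetal myosin heavy chain and a marker of cardiac stress, rose by 3.86 ± 0.30 at day 1 and stayed up at 2.50 at day 3 and 3.14 at day 7.

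The channel genes differed widely between tissues (joint fit of 26 arrays). Against untreated kidney, 6 of the 8 genes tested were higher in untreated heart (54.2% of all probe sets differed and 27.8% were higher). For 3 of them no untreated kidney array exceeded its 40th percentile on the reference probe set. Only a bound can thus be given, the heart mean over the kidney percentile on the linear scale. By these probe sets Cacna1c was at least 26.6-fold higher in heart, Kcnd2 at least 14.6-fold and Kcnj3 at least 14.2-fold. Their kidney readings were 13.1 to 25.5 for Cacna1c, 6.24 to 16.1 for Kcnd2 and 4.52 to 8.85 for Kcnj3. Weaker probe sets gave smaller differences. With single arrays left out, a second Kcnj3 probe set was higher in heart by 0.68 to 0.80 on the log2 scale. The second Cacna1c probe set was higher by 2.28 to 2.52. The reference probe sets of the other 3 genes were measured in both tissues. Kcnip2 was higher in heart by 3.53 ± 0.50, Kcnh2 by 2.68 ± 0.32 and Kcnd3 by 0.58 ± 0.12 on the log2 scale. All 3 passed under every alternative run, but the size for Kcnip2 was 1.33 and that for Kcnd3 0.21 with the mean of all probe sets, weak ones included. Kcnq1 (148 to 198 in kidney, 142 to 249 in heart) and Scn4b (117 to 152 in kidney, 36.3 to 162 in heart) did not differ beyond their spread at day 0, with differences of 0.19 ± 0.14 and 0.23 ± 0.16 (adjusted p 0.28 and 0.25).

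**Figure D3:**
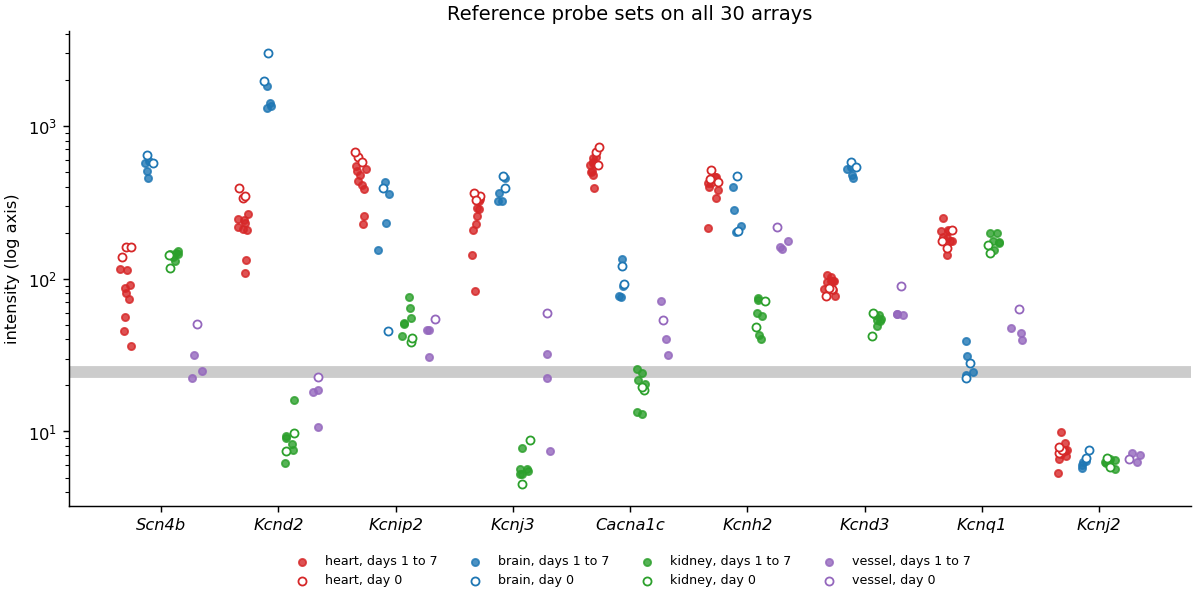
Intensity of each reference probe set on all 30 arrays (log axis), by tissue, with day 0 arrays as open circles; the grey band spans the arrays' 40th percentiles, 22.8 to 26.5. Kcnd2, Kcnd3 and Scn4b lie highest in brain, Cacna1c in heart, and Kcnj2 below the band everywhere.

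Against untreated brain, 6 of the 8 differed, 3 in each direction (72.3% of all probe sets differed). Cacna1c, Kcnq1 and Kcnip2 were higher in heart, by 2.45, 2.26 and 2.02 (37.0% of all probe sets were higher); the untreated brains read 22.3 and 28.1 for Kcnq1, near the percentile. Kcnd2, Kcnd3 and Scn4b were lower in heart, by -2.72, -2.54 and -1.87 (35.3% were lower). Kcnj3 and Kcnh2 did not differ beyond their spread (-0.30 ± 0.27 and 0.55 ± 0.32). The probe sets of Kcnd3 went against each other here: its 2 weaker ones were higher in heart, by 0.35 and 0.43, at intensities of 18.7 to 42.3. With single arrays left out, the second Cacna1c probe set was higher in heart by only 0.26 to 0.71. It kept its call in 18 of these fits and lost it in 8. A weak Kcnj3 probe set was called higher in heart, by 0.22 to 0.30 over the same fits. Another Kcnj3 probe set had means of 87.5 in untreated heart and 115 in untreated brain. The Kcnip2 difference rests on day 0 brain replicate 1, which read 45.2 while replicate 2 read 392; without replicate 1 the difference was 0.65 (adjusted p 0.14), and without replicate 2 it was 3.39. On the vessel arrays Kcnh2 read 156 to 219, above the kidney range of 40.2 to 74.8, and Kcnd3 read 58.2 to 90.1, partly within the kidney range of 42.1 to 59.6.

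In kidney none of the 5 genes with a tested reference probe set passed at any time in limma. Over all probe sets 0.585% passed at day 1 and 0% at days 3 and 7. At days 1, 3 and 7 an unadjusted p under 0.05 was reached by 1, 0 and 0 of these genes. Scn4b read 143 and 117 at day 0, 147 and 145 at day 1, 139 and 145 at day 3, and 152 and 130 at day 7. Kcnip2 read 38.5 and 40.8 at day 0, 76.3 and 51.6 at day 1, 64.4 and 50.3 at day 3, and 55.0 and 42.0 at day 7. Every treated kidney thus lay above both untreated ones for Kcnip2, the opposite side from heart, with a day 1 change of 0.51 ± 0.17 (adjusted p 0.23). Scn4b at day 1 and Kcnq1 at days 3 and 7 also lay above both untreated kidneys on both arrays, so 2 of the 5 genes did so on each day; 24.3% of all probe sets lay higher on both day 1 arrays (19.3% at day 3 and 19.4% at day 7). The sum of 9 adipocyte markers in kidney also differed between arrays: it was 444 and 431 at day 0, 5737 and 6598 at day 1, 14917 in day 3 replicate 2 and 365 to 635 on the other 3. Adrenal markers summed to 5899 in day 0 replicate 2 and 11329 in day 3 replicate 2 and to at most 629 elsewhere. Their part in the kidney values was not tested, and without those 2 arrays, an alternative chosen after seeing the data, still none of the 5 genes passed.

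The response of heart at day 1 was set against that of kidney in the joint fit. Of the 8 genes in that fit, 5 have a kidney level by their reference probe sets. The reference probe sets of Kcnd2, Kcnj3 and Cacna1c were too weak in kidney to be tested. For these the difference would only restate the heart values and is not given. Another probe set of Kcnj3 exceeded the percentile on all 8 kidney arrays and 1 of Cacna1c on 2, but neither difference passed. A weaker Kcnd2 probe set did pass, though it exceeded the percentile on only 1 of the 8 kidney arrays (11.2 to 24.2). With single arrays left out its difference ran from -1.51 to -1.06, and the call was kept in 7 fits and lost in 19. By reference probe sets the difference passed for Scn4b (-1.63 ± 0.23, adjusted p 0.0012), 1 gene (2.63% of all probe sets passed, 1.76% on the lower side). Kcnip2 differed by -1.55 ± 0.70 (adjusted p 0.27), with an SE that includes the spread of the brain arrays. With heart and kidney arrays only, a fit added after seeing the data, that SE was 0.29 and the difference for Kcnip2 passed (adjusted p 0.0095), as did Scn4b (adjusted p 0.0019). The Scn4b difference passed with each of the 26 arrays left out in turn, and that of Kcnip2 passed, at an adjusted p that rounds to 0.05, without either day 0 brain array. At days 3 and 7 none passed (2 and 1 genes at an unadjusted p under 0.05; 0.00773% and 0.0116% of all probe sets passed; 0.00387% lay lower and 0.00387% higher at day 3, 0.00773% lower and 0.00387% higher at day 7). Against brain none passed at day 3 or day 7, and 0 had an unadjusted p under 0.05 (0.658% and 0.331% of all probe sets passed; 0.440% higher and 0.218% lower at day 3, 0.128% higher and 0.203% lower at day 7).

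In brain none of the 8 genes passed at day 3 or day 7 in limma, where 0% of all probe sets passed; 1 gene at each day, Kcnd2, had an unadjusted p under 0.05. Kcnd2 read 2997 and 1961 at day 0, 1340 and 1304 at day 3, and 1811 and 1399 at day 7. All treated brains lay below the untreated ones, with changes of -0.87 ± 0.24 and -0.60 ± 0.24 (adjusted p 0.65 and 0.62). Kcnd3 too lay lower on every treated array at day 3 (22.2% of all probe sets did), and at day 7 Kcnj3, Kcnd2, Kcnd3 and Cacna1c did (25.0%). Genes typical of brain regions also differed between these arrays. A list of 7 cerebellar genes, chosen after the values were seen, summed to 37760 and 17865 at day 0, 3901 and 8544 at day 3, and 19131 and 6852 at day 7. In replicate order by day, Kcnip2 read 45.2, 392, 428, 154, 230 and 357, and Kcnh2 466, 206, 203, 399, 282 and 222. A list of 6 neocortical and hippocampal genes, also chosen after the values were seen, summed to 1373, 2680, 3109, 1542, 1404 and 2863 on the same arrays. The 3 arrays with the highest Kcnip2 had the 3 highest of these sums and low Kcnh2, and day 0 replicate 1, with the lowest Kcnip2, had the lowest. A list of 5 striatal genes, chosen in the same way, summed to 2549, 4628, 5726, 2316, 3693 and 5399. It too was highest on those 3 arrays, but lowest in day 3 replicate 2. A list of 8 hypothalamic genes, also chosen after the values were seen, summed to 616, 908, 2140, 478, 4631 and 5450. Neither Kcnd2 nor Kcnip2 nor Kcnh2 followed that order. The part of brain region in these values was not tested.

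**Figure D4:**
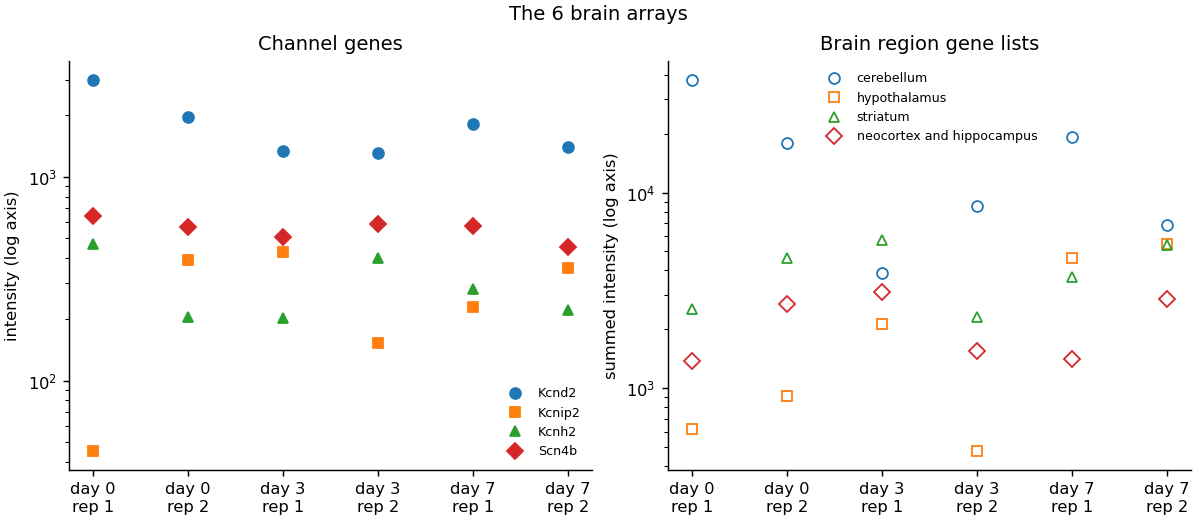
Left, intensities of Kcnd2, Kcnip2, Kcnh2 and Scn4b on the 6 brain arrays; right, summed intensities of 4 lists of brain region genes on the same arrays (log axes; single arrays, no error bars). Kcnip2 and Kcnh2 run in opposite directions over the arrays, and Kcnd2 and the cerebellar list are both highest in day 0 replicate 1, at 2997 and 37760.

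The 4 vessel arrays, 1 a day, allow no test. For 7 of the 9 genes the mean over these arrays lay above the 40th percentile, and 6 of the 7 read lower on all 3 treated arrays than on the day 0 array, as did 22.0% of all probe sets above that level. The exception was Cacna1c, and Kcnd2 and Kcnj2 were below the percentile on all 4 arrays. Kcnj3 read 59.5 at day 0, 22.3 at day 1, 7.5 at day 3 and 32.2 at day 7. The cardiomyocyte markers moved in the same order, summing to 25194, 12443, 2748 and 21848, and the atrial markers to 12150, 6136, 2686 and 9802. Scn4b read 50.1, 31.7, 22.3 and 24.9, and Kcnip2 54.2, 45.8, 30.9 and 46.2, both lowest at day 3 as well. Kcnh2 read 219, 156, 175 and 160, and Cacna1c 53.7, 31.4, 40.5 and 71.1, neither in that order. On the day 3 array, neuron markers summed to 3550, against 274, 300 and 482 on the others. The part of heart muscle and of nerve in the vessel samples was not tested.

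**Figure D5:**
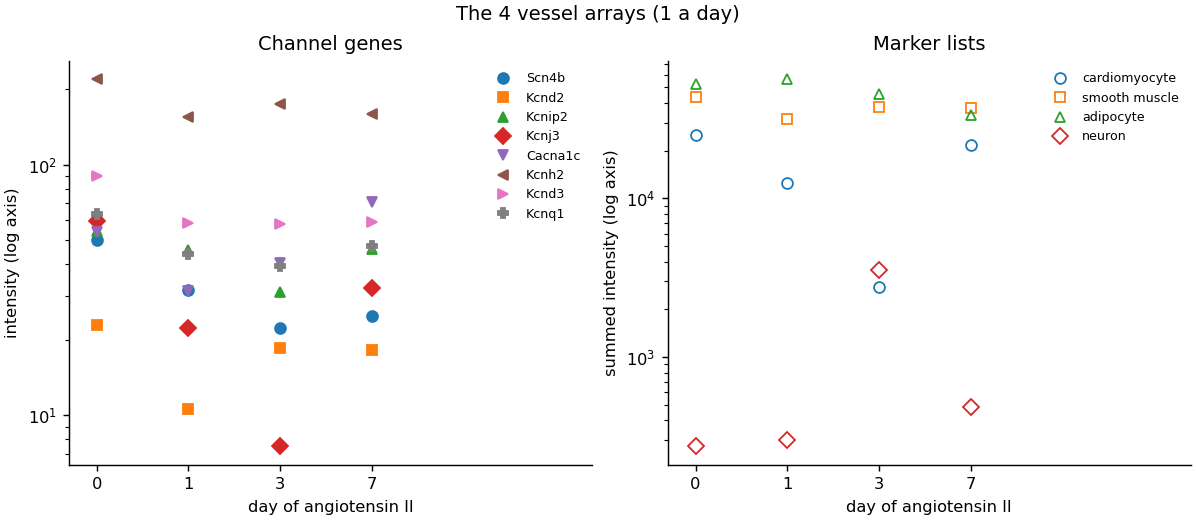
Left, intensities of 8 channel genes on the 4 vessel arrays by day of angiotensin II; right, summed intensities of cardiomyocyte, smooth muscle, adipocyte and neuron markers on the same arrays (log axes; 1 array a day, no error bars). Kcnj3 and the cardiomyocyte sum are both lowest at day 3, at 7.5 and 2748.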

How the data were processed

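The authors deposited 1 linear intensity for each probe set and array. The submitters' processing notes name Expression Console as the software; which algorithm and version it ran is not given in the sources used here. Array medians agree to within 35.2 to 37.8, so no further normalization was applied. Probe sets with a single gene symbol were analysed as log2(intensity + 16) with limma 3.58.1 in R 4.3.3: group means per tissue, moderated tests and Benjamini-Hochberg adjustment over all tested probe sets. Tissues were compared in a joint fit of 26 arrays. The members, lists and tests were chosen with earlier results of these data known. All 9 genes were named with all probe sets; other lists gave up to 3 genes past the threshold, or the smallest p, and a few fixed names. In simulated heart arrays the test recovered 89.0% of 2-fold and 64.0% of 1.5-fold changes (25.0% of 2-fold changes in brain, day 3). The simulation gave all arrays of a tissue the same spread for a probe set. The real spread was unequal: in heart the SD of Kcnd2 was 0.11 at day 0 and 0.61 at day 1. These shares may thus not hold for such genes. Python 3.11.15, pandas 2.3.3, numpy 2.4.6, scipy 1.17.1 and matplotlib 3.10.9 were used. The alternatives tried are named in the closing section.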

Additional observations from a re-analysis of the deposited data

Results flagged for a closer look

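The response to angiotensin II at day 1 differed between heart and kidney for Scn4b (-1.627 on the log2 scale), by the test of the difference itself. In heart Scn4b fell, while its 8 kidney arrays stayed between 117 and 152.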

How the results depend on the processing

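The number of the 9 genes called at day 1 in heart was 5, and 3 with no filter, with the joint fit of 3 tissues or with only the groups compared; with single arrays left out it ran from 2 to 6. At day 3 it was 0, and 1 with only the groups compared (0 to 2 with arrays left out); at day 7 it was 0, and 2 with only the groups compared (0 to 1). From day 1 to day 3 it was 1, and 0 with only the groups compared (0 to 5). From day 1 to day 7 it was 2, and 1 with no filter or the mean of all probe sets, and 0 with only the groups compared (0 to 6). At any time it was 3, and 1 with no filter (1 to 6). Same-numbered arrays correlated above 0.1 in their deviations in 2 of 18 pairs in heart, 8 of 12 in kidney and 2 of 6 in brain. In kidney and brain, with 2 arrays a group, both same-numbered pairs of any 2 days hold the same value. For kidney days 0 and 3, for example, it was 0.214 in both, so these counts repeat each value. Differently numbered pairs only mirror these values with the sign turned and add no comparison. As no tissue had every pair above 0.1, the numbers were not taken to pair the arrays. With the replicate block, the count was 1 from day 1 to day 7 and 1 at any time, and the block moved no other count of calls by over 1.5 times. For heart against kidney at day 1 the count was 1, and 2 with heart and kidney arrays only. With arrays left out it was 1 to 3, the 3 including Kcnd2 and Kcnj3, whose reference probe sets were too weak in kidney to be tested. For heart against brain at days 3 and 7 it was 0 (0 to 1 each, the 1 without day 0 brain replicate 2).

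Scn4b at day 1 passed under every alternative run. Kcnip2 at day 1 lost its call in the joint fit of 3 tissues (adjusted p 0.13). The SE of that fit includes the spread of the brain arrays. On the log2 scale the SD of Kcnip2 at day 0 was 1.94 in brain and 0.10 in heart. Signs turned only for changes that had not passed: Kcnq1 at day 1 (-0.05; 0.05 without day 0 replicate 2, 0.08 without day 1 replicate 2, lowest -0.17 without day 1 replicate 3) and at day 7 (-0.07 without day 0 replicate 3, -0.001 without day 7 replicate 2, highest 0.12 without day 0 replicate 2), Kcnd3 in heart against kidney (-0.08 without day 0 kidney replicate 2 or without both kidney arrays with adrenal markers, highest 0.30 without day 0 kidney replicate 1), and Cacna1c in heart against kidney (0.05 with an added value of 1). The other alternatives were an added value of 64, repeated quantile normalization, 1 probe set a gene, reference by heart mean, and trended or robust variance. With single heart arrays left out, the day 1 call of Kcnj3 was lost in 5 fits and that of Cacna1c in 9. The reference probe set of Kcnd2 lost its call in 1 fit, and its other tested probe sets in none. Those of Scn4b and Kcnip2 passed in each. All these calls rest on 3 arrays a group, and for the called genes replicate 3 of day 1 is the mildest.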
